A study of Saccharomyces cerevisiae with 6 samples.

Results

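Budding yeast cells (Saccharomyces cerevisiae) that lack GAT1 were compared between a medium containing proline and a medium containing glutamine, the source of nitrogen being the labelled difference. The comparison used 4 of the 6 libraries of the series, namely 2 biological replicates of gat1Δ cells in proline and 2 of gat1Δ cells in glutamine. The other 2 libraries came from dal80Δ cells in glutamine; they shared the estimate of the spread and are quoted only where a value needs a second strain. Every feature of the type gene was taken, 5795 of the 6192 features in the table, and 5551 of them passed a filter on low values. The labels say that the replicates are biological, and nothing else shows that they were separate cultures, so the p-values measure the spread between these libraries. All 4 libraries carry the same deletion, so the comparison shows the response to the medium without Gat1 and not what Gat1 adds to it.

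GAT1 (YFL021W, chromosome 6, 95966 to 97498, plus strand, build R64) had 3 and 2 reads in proline and 2 and 2 reads in glutamine, against 1603 and 1062 reads in the dal80Δ libraries. The deleted gene was therefore near 0 in all 4 libraries compared, as their labels say, and was not tested.

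Yeast prefers nitrogen sources such as glutamine or ammonium, and while these are present it keeps the genes for poorer sources off, a state called nitrogen catabolite repression. The activators Gln3 and Gat1 and the repressors Dal80 and Gzf3 all bind GATA sequences before these genes. Under good nitrogen Ure2 holds Gln3 in the cytoplasm. Proline is a poor source: it is taken up by permeases, oxidised in mitochondria by Put1 and Put2 to glutamate, and can be used only where respiration works. The transcription factor Put3 responds to proline itself. A second sensor, the SPS complex at the plasma membrane, switches on permease genes when amino acids are present outside the cell, and general amino acid control through Gcn4 switches on synthesis genes when amino acids run short.

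Read counts over genes were scaled by trimmed mean of M-values (TMM), which takes most genes as unchanged, and are given as RPM for replicates 1 and 2. RPM is reads per 1000000 gene reads, with the gene reads of each library multiplied by its TMM factor. Shares of gene reads are not scaled in this way, so RPM and shares differ. RPM values are not per length and serve to compare libraries, not genes. The libraries of this comparison held between 17009715 and 28842495 reads. Of 5551 genes, 60 differed by over 2-fold between the proline libraries and 37 between the glutamine libraries, and the median gene differed by 0.17 and 0.18 on the log2 scale. A change is given as a log2 ratio of proline over glutamine with its standard error, on log2(RPM + 0.25), which understates the change of low genes. "Rose" and "fell" are used of genes past an adjusted p of 0.05 in limma. Since the samples are bulk RNA, fewer cells of a kind and less RNA per cell cannot be told apart.

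Under TMM scaling, 3556 of 5551 genes passed the threshold (64.1%), 1870 higher in proline (33.7%) and 1686 lower (30.4%). The count test of edgeR on the recovered reads called 3550. The 2 proline libraries both lay above or both lay below the 2 glutamine libraries for 4588 genes (82.7%). With a change of 2-fold or more as a further condition 811 genes were higher (14.6%) and 726 lower (13.1%). Changes of 4-fold or more were rarer, with 213 genes higher (3.84%) and 144 lower (2.59%). The 213 genes together held 10.9 and 9.64% of gene reads in proline, against 0.773 and 0.792% in glutamine. The 144 held 5.25 and 6.80% in proline and 24.8 and 24.6% in glutamine. Reads were also spread over more genes in proline: 243 and 224 genes made up 50% of gene reads there, against 142 and 131 in glutamine, and the 10 genes with most reads held 8.58 and 9.35%, against 18.1 and 19.2%.

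The scaling set the balance of rises and falls. TMM put the median gene at a log2 ratio of 0.06, while the counts as deposited, which the authors had brought to nearly equal gene totals, put it at 0.56. With the deposited scaling 3174 genes were called higher (57.1% of those tested) and 860 lower (15.5%), so that 78.7% of calls were rises. Relative log expression (RLE), which like TMM centres on the typical gene, gave 1746 (31.5%) and 1787 (32.2%) with a median of 0.01. Totals of small nucleolar RNAs gave 1630 (29.4%) and 788 (14.2%) with a median of 0.26, and totals over all features 2603 (46.9%) and 1116 (20.1%) with a median of 0.38. No gene called in 1 direction with TMM was called in the other with any of these 4 scalings. The deposited scaling turned the sign of 1133 genes (20.4%), of which the largest TMM change was 0.50 in size, and it ended 825 calls of a fall and made 1298 calls of a rise. Under all 5 scalings 1593 genes were called higher (28.7%) and 766 lower (13.8%). The deposited, all-feature and snoRNA scalings place the median gene above its TMM value. Holding under all 5 is therefore a weaker check on rises than on falls. The deposited and all-feature scalings ended 0 calls of a rise, RLE ended 124 and snoRNA totals 270. For the gene lists, the count that held under all 5 is given with the count under TMM. Counts under TMM are to be read against 33.7% higher and 30.4% lower over all genes. Counts that held under all 5 scalings are to be read against 28.7% higher and 13.8% lower.

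**Figure D1:**
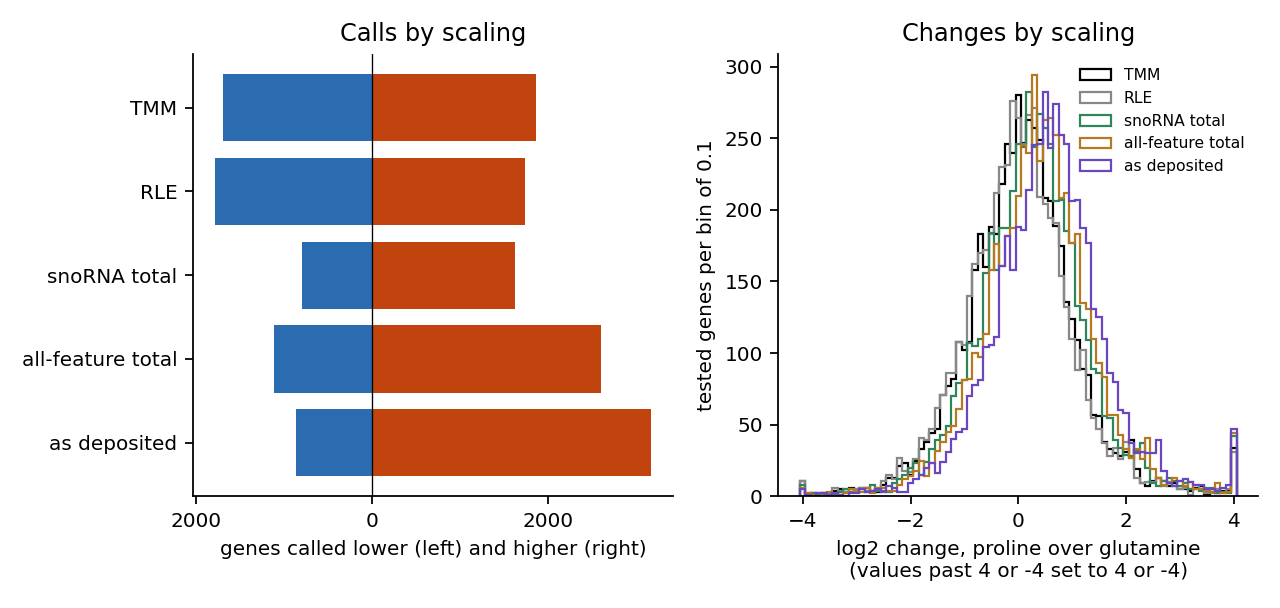
Left, genes called higher in proline (right of 0) or lower (left of 0) in gat1Δ cells under 5 ways of scaling the libraries. Right, the distribution of log2 changes under each, where values beyond 4 or -4 are placed at 4 or -4. The deposited scaling gives 3174 higher and 860 lower, TMM 1870 and 1686, and the distributions differ by a shift of the centre, with medians from 0.01 (RLE) to 0.56 (as deposited).

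**Figure D2:**
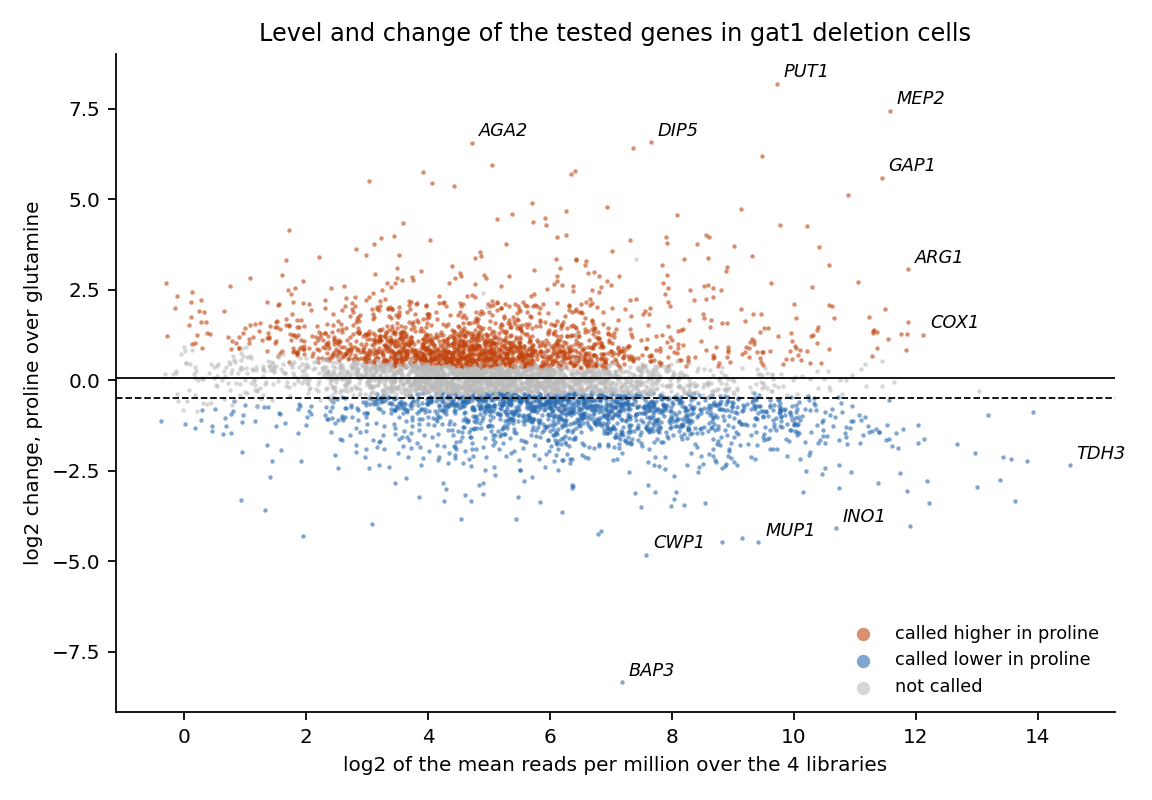
Each point is 1 of 5551 tested genes, with the log2 of its mean RPM over the 4 gat1Δ libraries (horizontal) and its log2 change, proline over glutamine (vertical). Orange genes were called higher in proline, blue genes lower and grey genes neither. The solid line is the median gene at 0.06 and the dashed line is where no change would lie under the deposited scaling. TDH3, at the right edge, lies below both lines.

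The genes for using proline itself rose together, and PUT1 had the largest rise of any gene of at least 20 RPM. All 4 genes of proline use rose (median 4.01, against 0.06 over all genes), and all 4 did so under every scaling. PUT1 (YLR142W, chromosome 12, 425186 to 426616, plus strand), for the proline oxidase of the mitochondrion, had 1188 and 2184 RPM in proline, against 4.70 and 5.94 RPM in glutamine (log2 8.18 ± 0.25, adjusted p = 1.93e-08 in limma). Its 2 proline libraries differed by less than 2-fold and lay far above both glutamine libraries. PUT4, the high-affinity proline permease gene, had 90.7 and 110.5 RPM in proline, against 2.16 and 4.51 RPM in glutamine (log2 4.89 ± 0.27). PUT2, for the enzyme of the next step to glutamate, had 809 and 916 RPM in proline, against 98.1 and 99.4 RPM in glutamine (log2 3.12 ± 0.13). PUT3, the activator gene, changed least of the 4, with 185 and 155 RPM in proline and 81.0 and 80.2 RPM in glutamine (log2 1.07 ± 0.13).

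All 9 genes of allantoin and urea use rose as well, under all 5 scalings, although the medium is labelled with proline and not with these compounds (median 4.37). Allantoin and urea are nitrogen stores and waste products of plants and animals that yeast breaks down through the DAL and DUR genes. DAL3 (YIR032C, chromosome 9, 415030 to 415617, minus strand), for ureidoglycolate lyase, had 297 and 355 RPM in proline, against 3.78 and 3.39 RPM in glutamine (log2 6.41 ± 0.15). DUR3, the urea transporter gene, had 1537 and 1285 RPM in proline, against 16.6 and 21.9 RPM in glutamine (log2 6.18 ± 0.17). DUR1,2, for the enzyme that splits urea to ammonia, had 3005 and 4358 RPM in proline, against 123 and 89.2 RPM in glutamine (log2 5.11 ± 0.25). The changes of the other members were 4.80 for the allantoate permease gene DAL5, 4.37 for DAL2, 3.43 for the allantoin permease gene DAL4, 3.34 for DAL7, 2.78 for DCG1 and 2.13 for DAL1. DAL1, for allantoinase, stayed low in both media, at 3.84 and 9.27 RPM in proline and 1.23 and 1.11 RPM in glutamine.

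The 3 ammonium permease genes rose under every scaling and together took 0.829 and 1.09% of gene reads in proline, against 0.0181 and 0.0204% in glutamine. MEP2 (YNL142W, chromosome 14, 357453 to 358952, plus strand), for the permease of highest affinity, which also acts as a sensor in filamentous growth, had 4946 and 7129 RPM in proline, against 30.5 and 37.6 RPM in glutamine (log2 7.44 ± 0.23, adjusted p = 2.23e-08 in limma). MEP1 had 647 and 771 RPM in proline, against 41.2 and 45.3 RPM in glutamine (log2 4.02 ± 0.16). MEP3 had 575 and 673 RPM in proline, against 117 and 147 RPM in glutamine (log2 2.24 ± 0.16) and was the least changed of the 3.

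Amino acid permease genes changed in both directions. Of 19 tested, 6 rose, 8 fell and 5 did not pass, with the same 6 and 8 called under all 5 scalings, beside 33.7% of all genes higher and 30.4% lower. GAP1 (YKR039W, chromosome 11, 515063 to 516871, plus strand), the general permease for all amino acids, had 4294 and 6601 RPM in proline, against 104.6 and 117 RPM in glutamine (log2 5.59 ± 0.22). DIP5, which takes up glutamate and aspartate, had 349 and 452 RPM in proline, against 2.78 and 5.51 RPM in glutamine (log2 6.57 ± 0.26). The arginine permease gene CAN1 (2.68), the S-adenosylmethionine permease gene SAM3 (1.93), the lysine permease gene LYP1 (1.09) and the histidine permease gene HIP1 (0.77) rose less. BAP3 (YDR046C, chromosome 4, 548762 to 550576, minus strand), for an uptake protein of leucine, isoleucine and valine, fell to 0.504 and 0.772 RPM in proline, against 249 and 329 RPM in glutamine (log2 -8.35 ± 0.18, adjusted p = 4.30e-09 in limma), and no gene of at least 20 RPM fell more. The methionine permease gene MUP1 fell to 52.1 and 63.8 RPM in proline, against 1066 and 1556 RPM in glutamine (log2 -4.48 ± 0.20). TAT1, for tyrosine and other amino acids, fell to 10.1 and 11.2 RPM in proline, against 171 and 248 RPM in glutamine (log2 -4.24 ± 0.18). AGP1 (-3.45), MMP1 (-1.60), BAP2 (-1.58), GNP1 (-1.26) and MUP3 (-0.95) fell too. AGP1, BAP2, BAP3, TAT1 and GNP1 are known targets of the SPS sensor, as is DIP5, which rose. The genes AGP2, AGP3, TAT2, ALP1 and SSY1, the last for the receptor of the SPS sensor, did not pass.

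**Figure D3:**
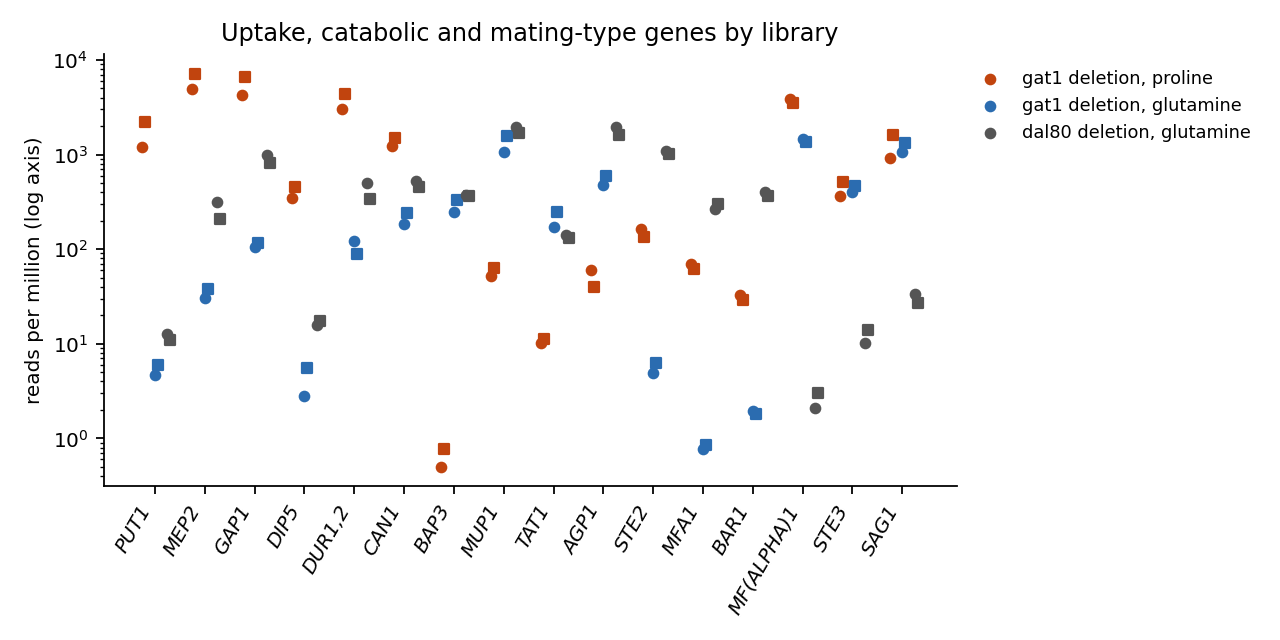
RPM on a log axis for 16 genes in each library: gat1Δ in proline (orange), gat1Δ in glutamine (blue) and dal80Δ in glutamine (grey), replicate 1 as a circle and replicate 2 as a square. From PUT1 to CAN1 both proline libraries lie above both gat1Δ glutamine libraries, from BAP3 to AGP1 they lie below. Of the mating-type genes at the right, STE2, MFA1 and BAR1 are highest in dal80Δ cells, lower in gat1Δ cells in proline and lowest in gat1Δ cells in glutamine.

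Of 7 genes of peptide uptake and glutathione breakdown, 2 rose and 4 fell (1 and 4 under all 5 scalings), beside 33.7 and 30.4% of all genes. OPT2, an oligopeptide transporter gene, had 121 and 212 RPM in proline, against 2.78 and 2.60 RPM in glutamine (log2 5.77 ± 0.30), while PTR2, for the di- and tripeptide transporter, fell to 10.3 and 17.8 RPM in proline, against 69.1 and 112 RPM in glutamine (log2 -2.67 ± 0.27). Among 11 tested vacuolar amino acid transporters 4 rose and 5 fell, and under all 5 scalings 4 and 2. RTC2, for an exporter of basic amino acids from the vacuole, had 695 and 378 RPM in proline, against 48.8 and 51.4 RPM in glutamine (log2 3.35 ± 0.23), and AVT1, which moves amino acids into the vacuole, fell to 75.5 and 94.5 RPM in proline, against 185 and 233 RPM in glutamine (log2 -1.30 ± 0.16).

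Of 10 tested regulators of permease traffic 4 rose and 1 fell, the same 4 and 1 under all 5 scalings, and the share that rose was near the 33.7% over all genes. NPR1, for a kinase that keeps Gap1 and other permeases at the plasma membrane, had 165 and 115 RPM in proline, against 45.6 and 46.2 RPM in glutamine (log2 1.58 ± 0.17). RSP5, for the ubiquitin ligase that marks permeases for removal, fell to 230.5 and 282 RPM in proline, against 573 and 648 RPM in glutamine (log2 -1.26 ± 0.16). ALY2, for an adaptor of that ligase, had 151 and 155 RPM in proline, against 76.8 and 72.4 RPM in glutamine (log2 1.04 ± 0.13). AMA1, a gene of meiosis that stood in this list by mistake, was too low to test.

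The GATA factor genes that these cells still have all rose. Of 12 tested regulators of nitrogen genes 10 rose and 0 fell, the same 10 and 0 under all 5 scalings (median 1.30). GLN3, for the remaining GATA activator, had 176 and 113 RPM in proline, against 41.3 and 36.5 RPM in glutamine (log2 1.85 ± 0.19). GZF3, for a repressor, had 55.7 and 54.9 RPM in proline, against 19.0 and 18.9 RPM in glutamine (log2 1.53 ± 0.12). DAL80, for the other repressor, had 195 and 497 reads in proline and 2 and 1 reads in glutamine, a ratio of 181 after scaling with an exact 95% interval of 61.8 to 882 that covers counting error only. Dal80 messages were thus nearly undetected in glutamine and read in both proline libraries. URE2, for the protein that holds Gln3 back, had 63.0 and 44.1 RPM in proline and 37.4 and 31.1 RPM in glutamine (log2 0.63 ± 0.19); its call ended without the first proline library (0.37) and without the second glutamine library (0.49). UGA3, the activator gene of GABA use, had 720.0 and 543 RPM in proline, against 44.6 and 46.3 RPM in glutamine (log2 3.78 ± 0.16). GCN4, for the activator of amino acid synthesis genes, had 2492 and 2441 RPM in proline, against 779.7 and 730.4 RPM in glutamine (log2 1.71 ± 0.17), although its protein is known to be set mainly by translation.

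Most enzyme genes of glutamate and glutamine rose. Of 5 glutamate and glutamine enzyme genes 4 rose, under all 5 scalings. GLN1, for glutamine synthetase, had 2476 and 2549 RPM in proline, against 203 and 189.8 RPM in glutamine (log2 3.68 ± 0.14), and GDH2, for the dehydrogenase that releases ammonium from glutamate, had 797 and 894 RPM in proline, against 106 and 102 RPM in glutamine (log2 3.02 ± 0.14). GDH3, for a glutamate-forming dehydrogenase, had 83.4 and 61.6 RPM in proline, against 4.70 and 5.46 RPM in glutamine (log2 3.76 ± 0.18), whereas its isoenzyme gene GDH1 did not pass (log2 0.54 ± 0.22, adjusted p = 0.051) but was called higher under the deposited, snoRNA and all-feature scalings. Of 5 genes for breaking down arginine and making proline 3 fell and none rose under TMM, and 2 of the falls held under all 5 scalings. With the deposited scaling 2 of the 5 were called higher and 2 lower, and with all-feature totals 1 and 2. CAR2, for ornithine transaminase, fell to 7.05 and 6.06 RPM in proline, against 46.9 and 54.0 RPM in glutamine (log2 -2.90 ± 0.14), and PRO3, for the last step of proline synthesis, fell to 129 and 163 RPM in proline, against 367 and 477 RPM in glutamine (log2 -1.53 ± 0.18). CAR1, for arginase, changed by -0.53, and its call ended under the deposited, all-feature and snoRNA scalings and without the second glutamine library (-0.41). Of 5 genes of GABA use UGA3 and the permease gene UGA4 (2.33) rose, while GAD1 (-2.04) and UGA1 (-0.78) fell; under all 5 scalings 2 rose and 1 fell, the fall of UGA1 being lost. Of 4 genes of aromatic amino acid breakdown only ARO10 passed (log2 1.94 ± 0.52), under all 5 scalings but not without the first glutamine library (1.43).

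The 200 bases from 300 to 101 before the start codon of 4 of these genes are given as examples of the DNA before genes with large rises, read from the RefSeq R64 sequence 5′ to 3′ on the strand of the gene. Of the 5795 genes 5786 were found in that annotation and 5754 had the same start and end as in the deposited table. Capitals mark GATAAG on either strand (CTTATC on the printed one), the core bound by GATA factors, and in PUT1 also CGG and CCG spaced by 10 bases, the form of the site that Put3 binds.
PUT1 (chr12:424886-425085, plus strand): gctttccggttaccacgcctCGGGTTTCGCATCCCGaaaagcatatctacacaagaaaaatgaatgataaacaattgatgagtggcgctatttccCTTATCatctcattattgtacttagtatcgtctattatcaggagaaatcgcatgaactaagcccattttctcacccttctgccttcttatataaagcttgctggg
MEP2 (chr14:357153-357352, plus strand): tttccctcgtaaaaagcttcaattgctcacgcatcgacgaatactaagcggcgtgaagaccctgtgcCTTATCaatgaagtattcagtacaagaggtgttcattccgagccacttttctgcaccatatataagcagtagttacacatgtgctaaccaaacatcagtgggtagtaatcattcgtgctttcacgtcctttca
GAP1 (chr11:514763-514962, plus strand): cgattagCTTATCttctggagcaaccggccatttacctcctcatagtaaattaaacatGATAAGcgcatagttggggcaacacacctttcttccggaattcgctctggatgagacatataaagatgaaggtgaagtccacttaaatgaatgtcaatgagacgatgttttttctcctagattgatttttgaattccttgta
DAL3 (chr9:415718-415917, minus strand): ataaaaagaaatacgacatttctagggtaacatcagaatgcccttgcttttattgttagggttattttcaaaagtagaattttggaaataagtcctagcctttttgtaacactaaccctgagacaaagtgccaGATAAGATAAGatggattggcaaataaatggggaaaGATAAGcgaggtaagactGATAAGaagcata
DAL3 carries 4 overlapping or separate matches of GATAAG in this stretch, GAP1 carries 2, and MEP2 and PUT1 carry 1 each. Over the 300 bases before the start codon, 24.4% of the 213 genes called at least 4-fold higher held GATAAG, and 7.98% held it 2 or more times. Of all 5494 tested genes with such a window the shares were 14.9 and 1.66%, and of 143 genes called at least 4-fold lower 14.0 and 0.699%. The search took the letters GATAAG on both strands and let matches overlap. The windows did not differ much in base composition, with a median G and C content of 35.3% over all genes, 35.0% in the large rises and 35.7% in the large falls. Most genes with large rises had no such match, and a match is only a run of letters here, since no binding was measured.

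All 10 genes of arginine synthesis rose, under every scaling (median 1.98), and they held 3.99 and 2.81% of gene reads in proline, against 0.527 and 0.543% in glutamine. ARG1, for argininosuccinate synthetase, had 7724 and 5638 RPM in proline, against 739 and 842 RPM in glutamine (log2 3.06 ± 0.20), and was among the 5 largest gains of read share. ARG3, for ornithine carbamoyltransferase, had 2097 and 1226 RPM in proline, against 96.1 and 69.9 RPM in glutamine (log2 4.29 ± 0.24). ARG5,6 (YER069W, chromosome 5, 295410 to 298001, plus strand), whose product is cut into 2 successive enzymes of the pathway, had 4256 and 3142 RPM in proline, against 553 and 564 RPM in glutamine (log2 2.71 ± 0.18). In each of these 3 genes replicate 1 of proline was above replicate 2, and both were above glutamine.

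The stretch from 300 to 101 bases before ARG5,6 holds a match of GATAAG and a match of TGACTCA, the site of Gcn4, which lie close together. Both are in capitals.
ARG5,6 (chr5:295110-295309, plus strand): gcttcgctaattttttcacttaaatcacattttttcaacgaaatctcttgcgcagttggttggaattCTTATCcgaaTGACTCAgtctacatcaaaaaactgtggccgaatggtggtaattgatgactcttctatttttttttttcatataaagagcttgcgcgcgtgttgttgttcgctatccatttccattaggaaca
TGACTCA, searched on both strands, was in 11.7% of the windows of the 213 genes with large rises, in 0.699% of the 143 with large falls and in 2.71% of all 5494 windows. It was in 5 of 10 arginine synthesis windows, 6 of 12 for branched-chain amino acids and 4 of 6 for histidine. GATAAG was in 6 of the 10 arginine windows.

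Other synthesis pathways rose in part. Of 9 lysine genes 6 rose and 0 fell, of 6 tested histidine genes 5 and 0, and of 12 aromatic amino acid genes 8 and 0; under all 5 scalings 6, 4 and 8 rose. HIS5, for histidinol-phosphate transaminase, had 1139.8 and 872 RPM in proline, against 271 and 290.2 RPM in glutamine (log2 1.83 ± 0.17). LYS14, for the activator of lysine genes, had 276 and 222 RPM in proline, against 77.1 and 68.3 RPM in glutamine (log2 1.76 ± 0.15). HIS3 was read 2 and 0 times in proline and 0 and 1 times in glutamine and was not tested. The deleted GAT1 was as low, with 3 and 2 reads in proline and 2 and 2 in glutamine. Whether these cells carry HIS3 was not tested. The branched-chain genes were mixed, with 6 that rose and 3 that fell (6 and 2 under all 5 scalings). LEU4, for the first step to leucine, had 3910.1 and 3483 RPM in proline, against 983 and 1251 RPM in glutamine (log2 1.73 ± 0.19), while LEU1, for the second, fell to 537 and 559 RPM in proline, against 1541 and 1606 RPM in glutamine (log2 -1.52 ± 0.16). In the aspartate family 4 rose and 3 fell (4 and 1). ASN1, for asparagine synthetase, had 5154 and 4038 RPM in proline, against 1045 and 1290.3 RPM in glutamine (log2 1.97 ± 0.19), while its isoenzyme gene ASN2 had 705 and 798 RPM in proline and 1097 and 1398 RPM in glutamine (log2 -0.72 ± 0.17), a fall that was not called under the deposited and snoRNA scalings.

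Sulfur amino acid genes mostly fell. Of 23 genes 12 fell and 7 rose (11 and 7 under all 5 scalings), and they held 1.57 and 1.45% of gene reads in proline, against 2.97 and 3.05% in glutamine. MET3, for ATP sulfurylase, the entry step of sulfate assimilation, fell to 26.9 and 55.5 RPM in proline, against 869 and 851 RPM in glutamine (log2 -4.47 ± 0.27). SAM2, for S-adenosylmethionine synthetase, fell to 288 and 513 RPM in proline, against 3029 and 2970.4 RPM in glutamine (log2 -2.96 ± 0.25), and CYS3, for cystathionine gamma-lyase, fell to 200.4 and 272 RPM in proline, against 940.1 and 1205 RPM in glutamine (log2 -2.19 ± 0.19). STR2, which runs from cysteine towards methionine, went the other way, with 282 and 148 RPM in proline, against 30.8 and 30.0 RPM in glutamine (log2 2.74 ± 0.25). Of 14 purine synthesis genes 13 fell and 0 rose (median -0.83), but only 6 of the falls held under all 5 scalings. ADE17 fell to 273 and 437 RPM in proline, against 1738 and 2254 RPM in glutamine (log2 -2.52 ± 0.24) and is for a late step to inosine monophosphate.

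**Figure D4:**
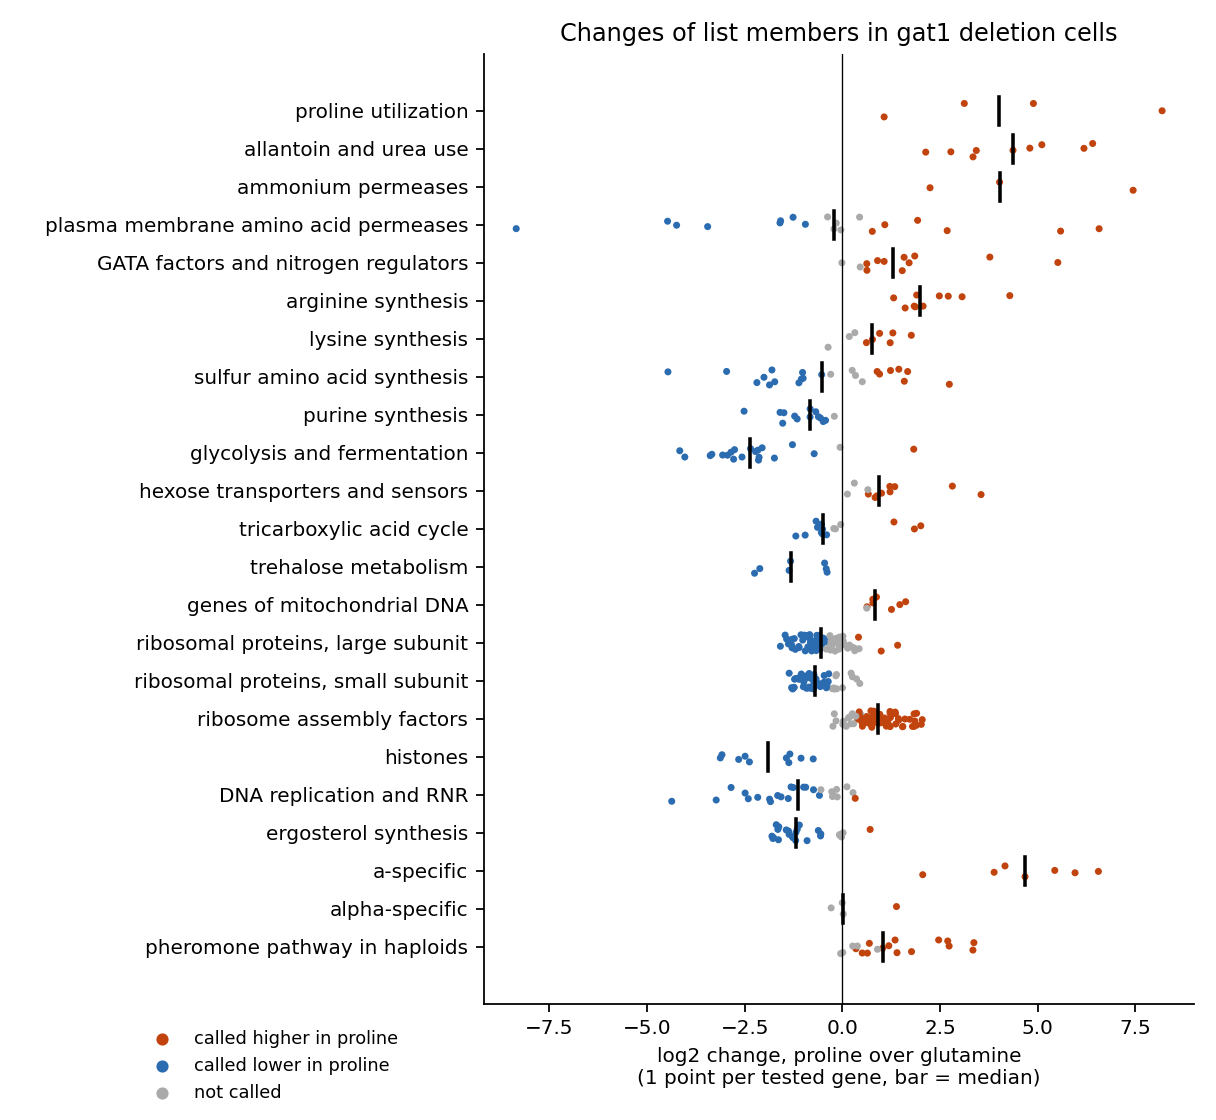
Log2 change, proline over glutamine, of every tested member of 23 gene lists (1 point per gene, orange called higher, blue called lower, grey not called), with the median of each list as a black bar. All members of proline use, allantoin and urea use, ammonium permeases, arginine synthesis and the a-specific genes lie right of 0, and all 10 histones lie left of it, while amino acid permeases lie on both sides.

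Glycolysis lost more reads than any other group examined. Of 21 genes of glycolysis and fermentation 19 fell and 1 rose (median -2.35; 18 and 1 under all 5 scalings), and the list held 4.06 and 5.19% of gene reads in proline, against 18.1 and 18.5% in glutamine. TDH3, for glyceraldehyde-3-phosphate dehydrogenase, fell to 6769 and 8695 RPM in proline, against 36299.6 and 42288 RPM in glutamine (log2 -2.35 ± 0.28), the largest loss of read share of any gene. ENO2, for enolase, fell to 1853 and 2774 RPM in proline, against 21365 and 24746 RPM in glutamine (log2 -3.34 ± 0.26). HXK1 (-4.16), TDH2 (-4.03) and GLK1 (-3.38) had the largest falls by ratio. The TDH family and the ENO pair hold near-identical copies, and the split of reads within each family is uncertain. The pyruvate decarboxylase genes moved apart: PDC1 fell (-2.22), PDC6 rose from a low level (5.67 and 5.08 RPM in proline and 1.93 and 0.901 RPM in glutamine, log2 1.83 ± 0.31), and PDC5 did not pass, at -0.06, a sign that turned under the deposited, snoRNA and all-feature scalings.

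Most tested genes of hexose transport and its sensing rose, while most genes of glycolysis fell. Of 12 tested hexose transporter and sensor genes 9 rose and 0 fell, under all 5 scalings (median 0.94), and 9 others were too low to test. HXT5, for a transporter made in slow growth, had 60.6 and 46.8 RPM in proline, against 3.70 and 5.04 RPM in glutamine (log2 3.55 ± 0.21). MTH1 (2.82) and STD1 (1.34), which are for corepressors of hexose transporter genes and not for transporters, rose too and are counted among these rises. Storage carbohydrates followed glycolysis: all 7 trehalose genes fell (4 under all 5 scalings), and of 11 glycogen genes 8 fell and 2 rose (7 and 2). TSL1, for a subunit of trehalose synthase, fell to 61.8 and 70.8 RPM in proline, against 385 and 258 RPM in glutamine (log2 -2.25 ± 0.19), and UGP1, which makes UDP-glucose, fell to 90.8 and 137 RPM in proline, against 612 and 559 RPM in glutamine (log2 -2.39 ± 0.19). Of 11 pentose phosphate genes 9 fell and 2 rose (6 and 2), with GND1, for the main 6-phosphogluconate dehydrogenase, at 319 and 499.8 RPM in proline, against 2166 and 2630.5 RPM in glutamine (log2 -2.58 ± 0.22).

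**Figure D5:**
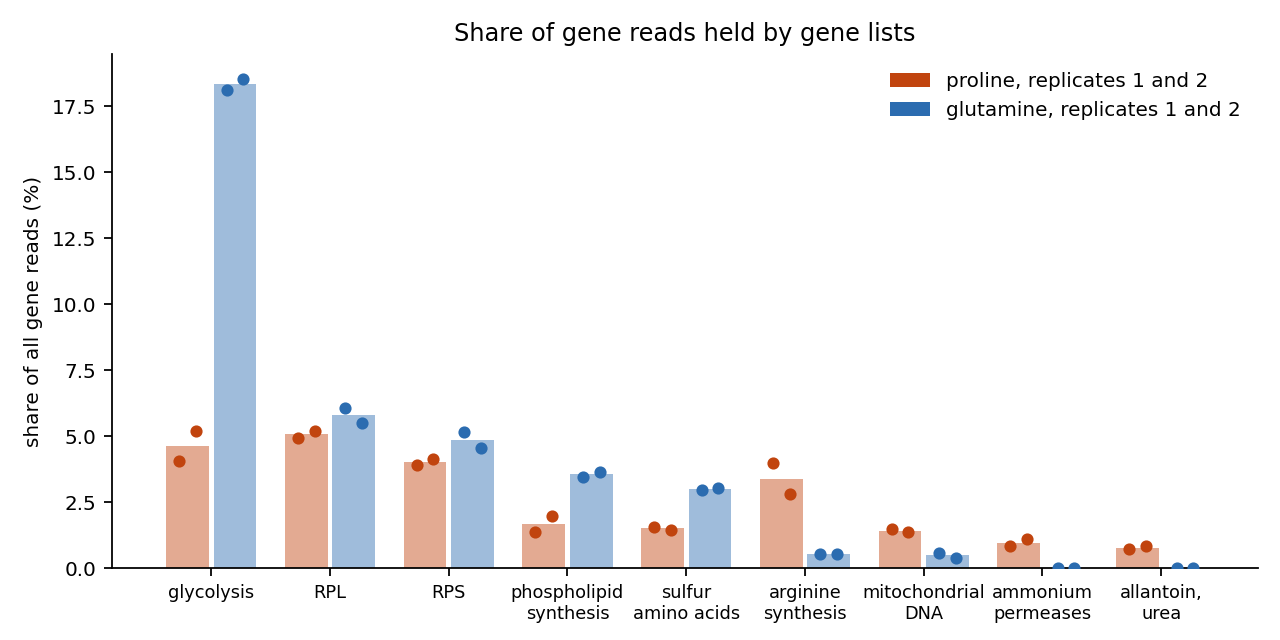
Share of all gene reads (percent) held by 9 gene lists in gat1Δ cells in proline (orange, left of each pair) and glutamine (blue, right); bars are means and points the 2 replicates. Glycolysis holds 4.63% in proline and 18.3% in glutamine, and arginine synthesis 3.40% and 0.535%. Ribosomal proteins hold 5.07% and 5.79% for the large subunit (RPL), and 4.02% and 4.87% for the small one (RPS).

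Within the tricarboxylic acid cycle the genes for aconitase and isocitrate dehydrogenase rose. Of 15 genes 3 rose and 9 fell, and under all 5 scalings 3 rose and 1 fell, while with the deposited scaling 5 rose and 2 fell. IDH1, for NAD-linked isocitrate dehydrogenase, had 201 and 216 RPM in proline, against 50.0 and 53.5 RPM in glutamine (log2 2.01 ± 0.13), and IDH2 (1.84) and the aconitase gene ACO1 (1.32) rose too. These 3 are also known targets of the retrograde response, by which cells keep making 2-oxoglutarate for glutamate. Of 14 genes of that list 9 rose and 2 fell (8 and 0 under all 5 scalings). CIT2, for the peroxisomal citrate synthase, had 191 and 203 RPM in proline, against 25.6 and 27.9 RPM in glutamine (log2 2.87 ± 0.13), and RTG3, for a transcription factor of the response, had 97.7 and 57.7 RPM in proline, against 17.4 and 15.9 RPM in glutamine (log2 2.16 ± 0.22). KGD1, for 2-oxoglutarate dehydrogenase, fell to 171 and 212 RPM in proline, against 419 and 452 RPM in glutamine (log2 -1.19 ± 0.15). Genes of the respiratory chain and ATP synthase moved little, with 9 of 34 higher and 7 lower (median -0.04). Under all 5 scalings 8 were higher and 1 lower, and with the deposited scaling 20 and 2. This list is nuclear except for COB, a gene of mitochondrial DNA.

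Genes of mitochondrial DNA rose. Of the 8 listed, 7 rose, under all 5 scalings. With TMM 17 of the 19 tested genes of that genome rose and none fell. COX1, for the catalytic subunit of cytochrome oxidase, had 6281 and 6216 RPM in proline, against 3112 and 2196 RPM in glutamine (log2 1.26 ± 0.22), and OLI1, for a subunit of ATP synthase, had 605 and 541 RPM in proline, against 283 and 150.0 RPM in glutamine (log2 1.47 ± 0.29). ATP8 was read little, at 2.58 and 1.504 RPM in proline and 0.771 and 0.265 RPM in glutamine, and its call ended without the second glutamine library (1.13). COX1 overlaps the reading frames of its introns, so that its reads are shared with them. Any of these frames among the 19 tested genes is therefore not an observation separate from COX1. The read share on noncoding features also differed between the media (31.8% on average in proline and 22.3% in glutamine), and its part in this result was not tested.

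With TMM scaling, ribosomal protein genes and the genes for assembling ribosomes moved in opposite directions. Of 68 assembly factor genes 55 rose and 0 fell (median 0.90; 47 and 0 under all 5 scalings). NOP15, for a factor of the large subunit, had 67.3 and 61.8 RPM in proline, against 13.6 and 17.6 RPM in glutamine (log2 2.04 ± 0.19). RRP36 (YOR287C, chromosome 15, 850937 to 851839, minus strand), for a factor of early processing of the ribosomal RNA precursor, had 16.9 and 11.95 RPM in proline, against 2.62 and 4.19 RPM in glutamine (log2 2.02 ± 0.26). NOP16 had 27.1 and 28.7 RPM in proline, against 6.55 and 8.11 RPM in glutamine (log2 1.90 ± 0.25). Of 7 RNA polymerase I subunit genes 5 rose and 0 fell (5 and 0 under all 5 scalings), and of 13 RNA polymerase III subunit genes 5 and 0 (4 and 0). For RNA polymerase III the share of rises was near that over all genes, 33.7% under TMM and 28.7% under all 5 scalings. Among the ribosomal protein genes themselves 3 of 76 for the large subunit rose and 45 fell (median -0.54), and 0 of 56 for the small subunit rose and 45 fell (median -0.71). These falls were small and rested on the scaling: 17 and 14 of them held under all 5 scalings, and with the deposited scaling 18 rose and 20 fell for the large subunit and 5 and 19 for the small one. RPL1A had 359 and 413 RPM in proline and 1201 and 1118 RPM in glutamine (log2 -1.59 ± 0.16), and RPS22A had 522 and 591 RPM in proline and 1446 and 1411 RPM in glutamine (log2 -1.36 ± 0.16). Most of these genes come in near-identical pairs, so that the split within a pair is uncertain.

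The stretch from 300 to 101 bases before RRP36 holds the letters GATGAG, the core of the PAC element known before many ribosome assembly genes, in capitals.
RRP36 (chr15:851940-852139, minus strand): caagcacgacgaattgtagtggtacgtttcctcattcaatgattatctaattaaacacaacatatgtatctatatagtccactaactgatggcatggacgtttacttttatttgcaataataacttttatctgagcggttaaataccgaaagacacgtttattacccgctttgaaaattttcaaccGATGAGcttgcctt
GATGAG on either strand was in 59 of the 68 windows of assembly factors, in 6 of 7 for RNA polymerase I and in 10 of 13 for RNA polymerase III. It was in 25.4% of the windows of 1847 genes called higher, in 12.9% of those of 1672 genes called lower and in 18.9% of all 5494. With the calls of the deposited scaling the share among genes called higher was 22.8%.

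Other genes of translation moved in both directions. Of 26 initiation and elongation factor genes 17 fell and 1 rose (9 and 0 under all 5 scalings), with HYP2, for elongation factor eIF5A, at 628 and 701 RPM in proline, against 2036 and 2146 RPM in glutamine (log2 -1.66 ± 0.16). Of 20 cytosolic aminoacyl-tRNA synthetase genes 11 fell and 3 rose (2 and 2), while the deposited scaling gave 6 lower and 7 higher. Of 55 genes whose names begin with MRP, nearly all for mitochondrial ribosomal proteins, 22 rose and 7 fell (15 and 1). MRPL25 had 18.7 and 16.9 RPM in proline, against 8.25 and 6.20 RPM in glutamine (log2 1.28 ± 0.19).

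Genes of the S phase were lower in proline. All 10 histone genes fell (median -1.91; 9 under all 5 scalings), with HTA2 at 24.4 and 47.8 RPM in proline, against 339.6 and 264 RPM in glutamine (log2 -3.12 ± 0.27) and HTB2 at 39.7 and 78.0 RPM in proline, against 505 and 445 RPM in glutamine (log2 -3.08 ± 0.26), both of families with near-identical copies. Of 26 genes of DNA replication and ribonucleotide reductase 17 fell and 1 rose (15 and 0). RNR1, for the large subunit of ribonucleotide reductase, which makes deoxyribonucleotides, fell to 38.8 and 69.3 RPM in proline, against 984 and 1179.8 RPM in glutamine (log2 -4.37 ± 0.24). POL30, for the sliding clamp, fell to 7.18 and 9.76 RPM in proline, against 81.1 and 80.3 RPM in glutamine (log2 -3.23 ± 0.16). CDC21 (YOR074C, chromosome 15, 466675 to 467589, minus strand), for thymidylate synthase, fell to 3.78 and 5.20 RPM in proline, against 32.5 and 34.6 RPM in glutamine (log2 -2.85 ± 0.17). The G1 cyclin gene CLN2 fell to 8.94 and 10.7 RPM in proline, against 103 and 105.1 RPM in glutamine (log2 -3.38 ± 0.14) and CLN1 to 8.63 and 15.0 RPM in proline, against 52.7 and 47.4 RPM in glutamine (log2 -2.11 ± 0.22). CLB6, for an S phase cyclin, had 0 and 9 reads in proline and 115 and 119 in glutamine. Of 14 genes of cyclins and cell cycle inhibitors 6 fell and 3 rose (5 and 3 under all 5 scalings). The genes of the MCM helicase moved little: of MCM2 to MCM7, MCM2 fell (-0.59), MCM7 rose (0.33) and the others did not pass. The rise of MCM7 was not called when any single library was left out. FAR1, for an inhibitor of G1 cyclins, rose, with 377 and 414 RPM in proline, against 145 and 166 RPM in glutamine (log2 1.35 ± 0.14).

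CDC21 carries 2 matches of ACGCGT, the core of the element bound by the G1 factor MBF, in the stretch from 300 to 101 bases before its start codon, in capitals.
CDC21 (chr15:467690-467889, minus strand): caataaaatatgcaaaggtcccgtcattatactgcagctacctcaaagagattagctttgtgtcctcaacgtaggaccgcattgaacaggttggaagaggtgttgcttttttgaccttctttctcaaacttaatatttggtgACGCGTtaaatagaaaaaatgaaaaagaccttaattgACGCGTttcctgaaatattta
ACGCGT reads the same on both strands and was counted once. It was in 14 of 26 windows of the replication list, in 14.0% of the 143 windows of genes with large falls, in 1.41% of the 213 of genes with large rises and in 3.64% of all 5494.

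Lipid synthesis fell. Of 25 ergosterol genes 20 fell and 1 rose (median -1.20; 16 and 1 under all 5 scalings). MVD1, for mevalonate pyrophosphate decarboxylase, fell to 69.4 and 93.6 RPM in proline, against 263 and 303 RPM in glutamine (log2 -1.80 ± 0.17), and ERG10 fell to 172 and 231 RPM in proline, against 630.1 and 745 RPM in glutamine (log2 -1.78 ± 0.18). IDI1, for isopentenyl diphosphate isomerase, was the member that rose (log2 0.71 ± 0.16). Of 21 phospholipid and fatty acid synthesis genes 14 fell and 3 rose (median -1.34; 12 and 2). INO1, for the first enzyme of inositol synthesis, fell to 94.6 and 345 RPM in proline, against 3228 and 2960.2 RPM in glutamine (log2 -4.09 ± 0.47, adjusted p = 5.54e-05 in limma). The proline libraries differed by more than 3-fold for INO1, and the change was -3.16 without the first proline library and -5.03 without the second. FAS1, for fatty acid synthase, fell to 2459 and 3532 RPM in proline, against 9607 and 10496 RPM in glutamine (log2 -1.77 ± 0.24), and CHO1, for phosphatidylserine synthase, fell to 214 and 407 RPM in proline, against 903 and 1165 RPM in glutamine (log2 -1.80 ± 0.27).

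Mating genes of the a type rose in proline in cells that otherwise read as alpha. Haploid yeast is of mating type a or alpha, and each type makes its own pheromone, receptor and surface proteins; the alpha type keeps the a-specific genes off through the repressor alpha2. The labels used here do not give the mating type. The 4 alpha-specific genes summed to 5305 and 5944 RPM in gat1Δ proline and 3175 and 3457 RPM in gat1Δ glutamine, against 45.6 and 44.5 RPM in dal80Δ. The 7 a-specific genes summed to 410 and 327 RPM in gat1Δ proline and 17.0 and 16.3 RPM in gat1Δ glutamine, against 2796 and 2640 RPM in dal80Δ. The gat1Δ and dal80Δ libraries therefore differ in mating type markers, and both gat1Δ media show the alpha set.

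All 7 a-specific genes rose in proline, under all 5 scalings (median 4.68). STE2, for the receptor of alpha factor, had 161 and 134 RPM in proline, against 4.86 and 6.26 RPM in glutamine (log2 4.68 ± 0.16). MFA1, for the a-factor pheromone, had 70.3 and 61.0 RPM in proline, against 0.771 and 0.848 RPM in glutamine (log2 5.96 ± 0.14), and MFA2 had 34.9 and 31.0 RPM in proline, against 0.617 and 0.424 RPM in glutamine (log2 5.44 ± 0.16). AGA2, for the adhesion subunit of a-agglutinin, had 1069 and 938 reads in proline and 5 and 4 reads in glutamine, a ratio of 175 with an exact 95% interval of 92.2 to 384. BAR1, for the protease that destroys alpha factor, had 32.9 and 29.2 RPM in proline, against 1.93 and 1.80 RPM in glutamine (log2 3.88 ± 0.13). HMRA1, the copy of the a1 gene to which reads of an a-type locus would map, had 0 reads in all 4 gat1Δ libraries, and 226 and 219 in dal80Δ. In each library a count of 0 is compatible with up to 3 reads. The a-specific messages in proline thus came without reads of a1, and whether other cells took part was not tested.

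Of the 4 alpha-specific genes the pheromone gene MF(ALPHA)1 rose, under all 5 scalings, with 3872 and 3516 RPM in proline, against 1459.8 and 1368 RPM in glutamine (log2 1.38 ± 0.17). The receptor gene STE3 (log2 -0.00 ± 0.20), SAG1 (log2 0.02 ± 0.24) and MF(ALPHA)2 (log2 -0.29 ± 0.30) did not pass. Of 19 genes of the pheromone pathway that both types use 14 rose and 0 fell (13 and 0 under all 5 scalings). AGA1, for the anchor of a-agglutinin, had 636 and 772 RPM in proline, against 64.7 and 70.9 RPM in glutamine (log2 3.37 ± 0.17), PRM1, for membrane fusion, had 153 and 162 RPM in proline, against 11.9 and 19.5 RPM in glutamine (log2 3.34 ± 0.25), and KAR4, for a transcription factor of mating, had 113 and 128 RPM in proline, against 17.7 and 18.2 RPM in glutamine (log2 2.73 ± 0.13). The messages of MATALPHA2 rose too (log2 2.00 ± 0.28), but this gene has a near-identical silent copy, so that the source of its reads is uncertain. HO, for the endonuclease that switches mating type, fell to 4.53 and 6.71 RPM in proline, against 86.0 and 76.8 RPM in glutamine (log2 -3.82 ± 0.18). Of 8 genes of meiosis, which mark a/alpha diploids, 6 were tested, 1 rose and 1 fell, and they summed to 26.5 and 26.9 RPM in proline and 23.6 and 19.6 RPM in glutamine.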

How the data were processed

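Total RNA was depleted of ribosomal RNA and made into strand-specific paired-end libraries, per the labels' protocols. TopHat and build R64 are named in the submitters' processing notes; the counting program, its use of strand and its handling of multiply matching reads are not stated there. The authors' deposited table holds a read count and a density per feature. The deposited counts were whole in the first proline library; in the other 5 libraries the deposited values are counts scaled by the authors (a signal), in which 100% of the values were whole multiples of 1 step within a tolerance of 0.01 reads. The deposited density signal is that value per base. A further 6 columns of group values were not used.

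Here, whole reads were recovered from the steps, scaled over genes by TMM factors (edgeR 4.0.16, 1.34 and 1.27 in proline, 0.961 and 0.888 in glutamine), and tested as log2(RPM + 0.25) with limma 3.58.1 in R 4.3.3, with an intensity trend. Genes with at least 1 RPM in at least 2 of the 4 gat1Δ libraries were kept. All 6 libraries entered, with a term for each group and 3 residual degrees of freedom. P-values were adjusted by Benjamini-Hochberg over all 5551 genes. limma was used because only 1 of the 6 libraries was deposited as whole counts; edgeR's quasi-likelihood test and DESeq2 1.42.0 ran on recovered reads as alternatives. A permutation test of 2 against 2 cannot go below 0.33, so shares and motifs are descriptions without a test. The script was checked on simulated data. The libraries held 17009715 to 34718641 reads, whose number limits the precision; the intervals given for low counts cover counting error only, since reads carry no molecular identifiers.

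The gene lists, the motifs and the rule for named genes were chosen with earlier results of these data known. The rule took the GATA factors and URE2, the 12 largest rises and falls of at least 20 RPM without overlap, the 5 largest gains and losses of read share, up to 3 members per list and 1 the other way, isoenzymes that moved apart and the 5 largest differences between the proline libraries. Members given to complete a list, GCN4, the mating-type locus and HRA1 were added after their values were seen. The names ART1, YPQ1, YPQ2 and ATG36 were not found in the table. The values of 1 gene are not reported here. Alternatives covered scaling, pseudocount, filter, test, threshold, the replicate block and each library left out.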

Additional observations from a re-analysis of the deposited data

Results flagged for a closer look

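Reads on noncoding features were not part of the comparison and took a larger share in proline. They made up 30.5 and 33.1% of reads in proline (mean 31.8%), against 22.8 and 21.9% in gat1Δ glutamine and 23.2 and 26.2% in dal80Δ glutamine. Spliceosomal small nuclear RNAs took 7.66 and 8.27% in proline (mean 7.96%), against 2.65 and 2.86% in gat1Δ glutamine and 3.33 and 3.54% in dal80Δ. The entries SNR7-L and SNR7-S held nearly the same reads, 154012 and 154008 in the first proline library. Both are counted in all these shares and in the totals over all features, which are too high by the repeated reads. LSR1, the U2 RNA, had 42977 and 50756 RPM in proline and 13970.0 and 17210 RPM in glutamine. Shares of total reads after depletion of ribosomal RNA do not give amounts per cell, and the part of the library preparation in this difference was not tested.

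HRA1, a noncoding RNA on chromosome 1 (99305 to 99868, plus strand) picked out after its values were seen, had 138 and 101 reads in proline (mean 6.40 RPM), 1 and 2 reads in gat1Δ glutamine and 3 and 3 reads in dal80Δ glutamine. The ratio of proline over glutamine in gat1Δ cells was 62.6, with an exact 95% interval of 21.2 to 306 that covers counting error only. It shares 393 bases with DRS2 on the opposite strand, which had 215 and 166 RPM in proline and 201 and 238 RPM in glutamine. In glutamine HRA1 thus held 1 and 2 reads beside 2610 and 4484 reads of DRS2.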

How the results depend on the processing

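The count of 3556 genes stayed within 1.5 times under every alternative that kept the threshold: RLE, snoRNA, all-feature and deposited scalings, other pseudocounts and filters, edgeR (3550), DESeq2 (3372) and the 4 gat1Δ libraries alone. Leaving out 1 library gave between 2938 and 3319 calls. Requiring also a 2-fold change left 1537 genes, 811 higher and 726 lower. The counts by direction moved with the scaling: 3174 higher and 860 lower (78.7% higher) as deposited, 788 lower (67.4% higher) by snoRNA totals and 1116 lower (70.0% higher) by all-feature totals, where TMM gave 52.6% higher. The deposited, snoRNA and all-feature scalings centre on totals and not on the typical gene, and why they gave more rises was not tested. Taken over all features instead of genes, the differences in read share, proline minus glutamine, were -11.1 percentage points for glycolysis, 1.91 for arginine synthesis, 0.639 for ammonium permeases, -1.31 for sulfur genes and 0.595 for mitochondrial DNA (-13.7, 2.87, 0.942, -1.50 and 0.939 over genes), since noncoding reads enter the total. The share of GATGAG among genes called higher was 22.8% with deposited calls.

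The sign turned for 2 named genes that were not called: PDC5 was 0.26, 0.44 and 0.14 and ALD3 0.24, 0.42 and 0.13 under the all-feature, deposited and snoRNA scalings, and PDC5 ranged from -0.28 to 0.16 as each library was left out. Of 227 named genes called, 205 kept their call and direction under those of the 16 alternatives that tested them. An alternative that did not test a gene, or gave it no adjusted p, was not counted against it. With the filter of 10 RPM, 211 of the 229 named genes were tested. Same-numbered gat1Δ proline and glutamine libraries deviated with a correlation of 0.019 across genes. Against dal80Δ the correlation was -0.073 for gat1Δ proline and -0.216 for gat1Δ glutamine. These values cannot show whether same-numbered libraries were handled together, and the main fit held no replicate block. With the replicate number as a block, 3378 genes were called, 3368 of them among the 3556. Depth limits genes under about 1 RPM, such as 9 hexose transporter genes.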

Other observations

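Genes for other nutrients are also set beside the 33.7% of all genes called higher and 30.4% called lower. Of 20 phosphate response genes 10 rose and 6 fell (10 and 2 under all 5 scalings). PHO84, for the high-affinity phosphate transporter, had 758 and 280.5 RPM in proline, against 15.0 and 25.0 RPM in glutamine (log2 4.56 ± 0.49), and PHO89 had 127 and 34.0 RPM in proline, against 2.24 and 2.81 RPM in glutamine (log2 4.58 ± 0.46). The first proline library was more than 2-fold above the second for both; without it the changes were 3.84 and 3.64, and without the second 5.28 and 5.53. Of 13 zinc response genes 5 fell, 1 rose and 7 did not pass (3 fell and 1 rose under all 5 scalings). ZPS1 fell to 25.8 and 29.1 RPM in proline, against 443 and 225 RPM in glutamine (log2 -3.51 ± 0.26). Of 20 iron genes 11 rose and 5 fell, and under all 5 scalings 6 rose and 0 fell, with FIT1, for a cell wall mannoprotein that retains iron carriers, at 18.5 and 18.9 RPM in proline, against 4.39 and 4.35 RPM in glutamine (log2 2.03 ± 0.18).

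Lists of stress, cell wall and peroxisome genes are set beside the 33.7% of all genes called higher and 30.4% called lower. Of 24 general stress markers 14 fell and 5 rose (11 and 4 under all 5 scalings), with DDR2 at 187 and 109 RPM in proline, against 40.8 and 26.1 RPM in glutamine (log2 2.12 ± 0.26) and the small heat shock protein gene HSP26 at 17.8 and 13.9 RPM in proline, against 81.8 and 50.8 RPM in glutamine (log2 -2.02 ± 0.27). Of 24 heat shock genes 15 fell and 3 rose (11 and 3). KAR2, the chaperone gene of the endoplasmic reticulum, fell to 205 and 273 RPM in proline, against 1929.9 and 2109 RPM in glutamine (log2 -3.09 ± 0.22). Of 13 genes of peroxisomal fatty acid oxidation 7 rose and 0 fell under TMM and under all 5 scalings, led by POX1, for acyl-CoA oxidase, with 24.5 and 22.5 RPM in proline, against 2.62 and 3.55 RPM in glutamine (log2 2.84 ± 0.21). Among 18 cell wall mannoprotein genes 6 rose and 8 fell (6 and 5), a share of rises near that over all genes. CWP1 fell to 10.01 and 16.0 RPM in proline, against 329 and 411 RPM in glutamine (log2 -4.83 ± 0.21), while TIP1 had 2154 and 2162 RPM in proline, against 322 and 403 RPM in glutamine (log2 2.58 ± 0.17).

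Several enzymes have gene pairs that moved apart. CIT2 rose (2.87) while the mitochondrial citrate synthase gene CIT1 fell (-0.64), a fall not called under the deposited, all-feature and snoRNA scalings. BAT2, for the cytosolic branched-chain transaminase, had 160.2 and 191 RPM in proline, against 22.3 and 22.5 RPM in glutamine (log2 2.95 ± 0.14), while the mitochondrial BAT1 had 759 and 627 RPM in proline and 938 and 1086 RPM in glutamine (log2 -0.55 ± 0.17), a fall not called under those 3 scalings, nor without the second proline (-0.41) or the second glutamine library (-0.44). The glycerol-3-phosphate dehydrogenase genes moved apart under all 5 scalings, with GPD2 at 312 and 281 RPM in proline, against 171 and 214 RPM in glutamine (log2 0.63 ± 0.15) and GPD1 at 95.9 and 132 RPM in proline, against 320.2 and 278 RPM in glutamine (log2 -1.40 ± 0.17). The transaldolase genes did so too, with NQM1 at 1.05 and TAL1 at -1.63.

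Lists of carbon use and protein turnover are given beside the 33.7% of all genes called higher and 30.4% called lower. Of 10 tested genes of gluconeogenesis and the glyoxylate cycle 6 rose and 2 fell (5 and 2 under all 5 scalings), with MLS1, for malate synthase, at 25.3 and 20.9 RPM in proline, against 0.848 and 0.954 RPM in glutamine (log2 4.34 ± 0.23). Of 6 tested glycerol genes 4 rose and 1 fell, under all 5 scalings. Of 28 autophagy genes 9 rose and 2 fell (9 and 0), a share of rises near that over all genes, and ATG1, for the kinase that starts the process, had 224 and 107 RPM in proline, against 38.2 and 35.4 RPM in glutamine (log2 2.07 ± 0.27). Of 11 vacuolar proteases and inhibitors 6 fell and 2 rose (4 and 1), and of 33 proteasome subunits 12 fell and 3 rose (2 and 3), a share of falls near that over all genes. Of 21 antioxidant enzyme genes 14 fell and 2 rose (7 and 1). TSA1, for the main cytosolic peroxiredoxin, fell to 362 and 566 RPM in proline, against 2472 and 2431 RPM in glutamine (log2 -2.44 ± 0.22), while CTA1, for the peroxisomal catalase, had 15.1 and 12.4 RPM in proline, against 2.24 and 2.97 RPM in glutamine (log2 2.30 ± 0.21). Of 12 tested genes of meiosis and sporulation 6 rose and 1 fell, under all 5 scalings, with SPS4 at 6.04 and 16.5 RPM in proline and 3.70 and 2.28 RPM in glutamine (log2 1.70 ± 0.40).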
